A study of Mus musculus with 6 samples.

Results

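The 37 genes described here are type I interferon-stimulated genes, chosen by symbol from a list written for this work, and all 37 were found among the 33696 features of the deposited tables. Type I interferons bind a shared receptor, IFNAR, whose kinases activate transcription factors. The resulting complex, ISGF3, binds interferon-stimulated response elements near the genes it induces. The products mark viral RNA and proteins, block virus assembly and feed back on the signal, and in tumours the same genes are read as a trace of interferon made by immune or tumour cells. By role, the members comprise the ubiquitin-like modifier Isg15 with its ligase Herc6 and protease Usp18, the RNA-binding Ifit genes, the transcription factors Irf7 and Stat2, and the oligoadenylate synthetase (Oas) family. The helicases Ifih1 and Dhx58, the nucleic acid-binding PYHIN genes, the Schlafen (Slfn) genes and other antiviral effectors such as Rsad2, Mx1 and Bst2 complete the list.

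The cells were CD45+ live cells sorted from mouse mammary tumours, with 1 single-cell library per treatment label, and the series title names MERTK inhibition and cyclophosphamide in a model of triple negative breast cancer. The 5 libraries are named here as the submitters spell them: MRX, CTX, Combined, ctxd18t and combod18t. The labels do not spell these abbreviations out or give the mouse strain, the tumour line or the number of animals. The protocol, whose text is the same on every sample, describes mice of day 7 treated 3 hours before harvest and puts MRX, CTX and Combined in 1 multiplexed run with the sample labelled VC, which is not analysed here. The labels of ctxd18t and combod18t carry d18, read here as day 18, so day and run cannot be told apart between these libraries and the other 3, and no untreated library enters any comparison. With 1 library per label there is no replicate and no test, and every interval below covers counting error only, at 95%.

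After filtering, 25653 cells remained, from 3845 in ctxd18t to 8506 in CTX, with a median of 6239 to 8940 molecules (unique molecular identifiers, UMIs) per cell. CTX and combod18t shared 31 kept cell barcodes and Combined and ctxd18t shared 20, while no other pair shared any. Leaving these cells out kept every summed member ratio inside its interval. Cells were clustered without the members or the other interferon gene lists. Clusters were then named from marker genes into 7 classes: neutrophil-like, monocyte-macrophage-like, plasmacytoid dendritic cell-like (pDC-like), conventional dendritic cell-like (cDC-like), T-like, NK-like and B-like. Defining markers of 6 of the 7 classes were highest where the names put them, with S100a9 between 19904 and 37590 counts per 1000000 (CPM) in neutrophil-like cells and Cd3e between 629 and 943 CPM in T-like cells. For cDC-like cells the 8 cDC2 markers summed to 1355 to 1599 CPM, above every other class in all 5 libraries, while the 8 cDC1 markers were higher in pDC-like cells in MRX and CTX. Markers of other classes were seen too, at levels that differed between libraries. The myeloid gene Lyz2 ranged from 532 (MRX) to 3699 CPM (CTX) in neutrophil-like cells, Cd3e from 5.93 (MRX) to 175 CPM (combod18t) in pDC-like cells and C1qa from 124 (MRX) to 388 CPM (CTX) in cDC-like cells.

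Promoter sequences are shown for 6 members whose level was highest in neutrophil-like cells, picked after their levels were seen, to set the best-known response element beside the levels. Cmpk2, with as steep a contrast between classes as Rsad2, is not shown, and its promoter held no match to the core described next. They come from RefSeq (mouse build GRCm38.p6, whereas the count tables were made on GRCm39), 5′ to 3′ on the gene's strand, from 200 to 51 bases before the annotated start. Capitals mark every match to the core GAAANNGAAA on either strand, where overlapping matches run together and a match on the other strand reads TTTCNNTTTC.
Isg15, chr4:156200869-156201018, minus strand: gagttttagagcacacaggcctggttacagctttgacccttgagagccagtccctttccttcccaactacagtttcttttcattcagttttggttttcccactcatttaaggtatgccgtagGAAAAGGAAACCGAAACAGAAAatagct
Rsad2, chr12:26456503-26456652, minus strand: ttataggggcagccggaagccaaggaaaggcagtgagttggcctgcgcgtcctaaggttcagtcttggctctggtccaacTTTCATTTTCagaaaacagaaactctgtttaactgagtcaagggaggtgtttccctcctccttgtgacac
Ifit1, chr19:34640689-34640838, plus strand: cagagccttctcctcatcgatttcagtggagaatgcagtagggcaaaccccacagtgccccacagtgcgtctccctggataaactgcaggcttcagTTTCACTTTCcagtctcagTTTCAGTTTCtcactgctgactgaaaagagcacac
Ifit3, chr19:34583329-34583478, plus strand: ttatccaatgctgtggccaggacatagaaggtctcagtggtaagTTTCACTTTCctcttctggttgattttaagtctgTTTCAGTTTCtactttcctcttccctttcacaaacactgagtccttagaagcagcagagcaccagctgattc
Ifit3b, chr19:34607757-34607906, plus strand: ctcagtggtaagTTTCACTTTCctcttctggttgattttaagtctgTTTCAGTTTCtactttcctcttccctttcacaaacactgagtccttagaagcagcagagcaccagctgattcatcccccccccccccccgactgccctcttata
Slfn4, chr11:83174986-83175135, plus strand: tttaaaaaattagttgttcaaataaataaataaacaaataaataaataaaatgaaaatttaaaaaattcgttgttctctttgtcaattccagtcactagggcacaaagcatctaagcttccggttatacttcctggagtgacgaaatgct
Isg15 held 3 overlapping matches, beginning 78, 72 and 66 bases before the start, Rsad2 held 1 at 120, and Ifit1 held 2 at 104 and 85. Ifit3 and Ifit3b, adjacent copies, were identical over the 118 bases that both printed windows cover at an offset of 32 bases, a length set by the windows, with matches at 156 and 122 in Ifit3 and at 188 and 154 in Ifit3b. Bases after the listed Ifit3b start were not found in its GENCODE M21 transcripts, so distances from that start are uncertain. The Slfn4 window held none, which says only that these letters are not in it. In promoters of 300 bases (250 before to 50 after the start) the core was in at least 1 promoter of 17 of the 28 members that the table lists (60.7%) and, counted the same way, of 1079 of 27025 gene symbols (3.99%). A match is a description of letters, not evidence of binding.

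Neutrophil-like cells carried the highest summed level of the 37 members in all 5 libraries. Their sum stood at 7674 CPM in MRX, 24673 in CTX and 18234 in Combined, and at 16608 in ctxd18t and 13665 in combod18t. Each UMI counts 1 molecule from its 3′ end, so levels were not divided by gene length, and CPM is the class's summed counts over its total count. Next came monocyte-macrophage-like cells, at 5960 CPM in MRX, 7746 in CTX and 6951 in Combined, and at 5684 in ctxd18t and 4518 in combod18t. The pDC-like sum stood at 6451 CPM in MRX, 7195 in CTX and 5897 in Combined, and at 5333 in ctxd18t and 4154 in combod18t. These 2 classes changed places only in MRX, where the pDC-like sum was higher. The cDC-like sum ranged from 2981 to 4688 CPM, the T-like sum from 1735 to 3107, the NK-like sum from 1267 to 1614 and the B-like sum from 749 to 1292. NK-like and B-like cells were lowest in all 5 libraries, and their order differed between libraries.

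**Figure D1:**
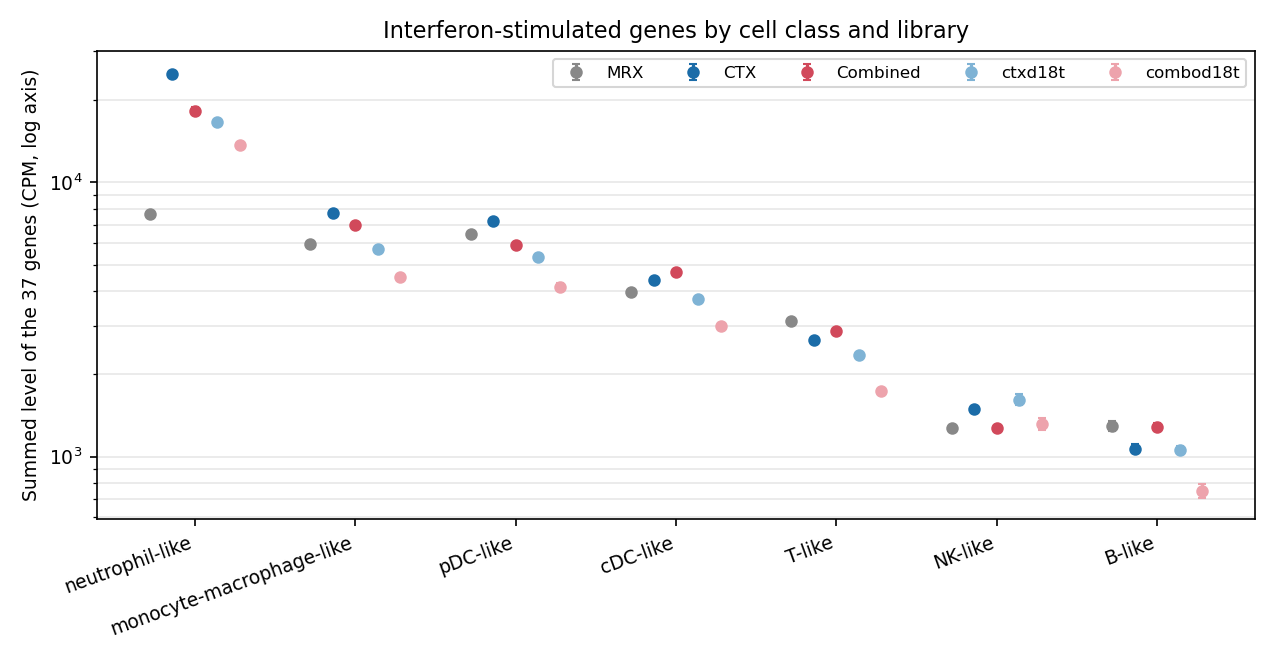
Summed level of the 37 members in CPM (log axis) for each cell class, with 1 point per library and its exact 95% Poisson interval. Neutrophil-like cells stand above every other class in all 5 libraries, and their MRX library, at 7674 CPM, lies below the other 4.

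Of the 37 members, 25 had their highest mean CPM over the 5 libraries in neutrophil-like cells, 22 of them in every library. Another 6 were highest in monocyte-macrophage-like cells (Mx1, Ifi44, Dhx58, Ifi27l2a, Ifi204 and Ifi211) and 3 in pDC-like cells (Bst2, Stat2 and Ifi213), while Ifi205 was highest in cDC-like, Ifi203 in T-like and Ifi209 in B-like cells. The ratio of the highest to the next class was 24.3 for Ifit3b, 19.7 for Slfn4, 14.8 for Ifit1, 11.6 for Cmpk2, 11.4 for Rsad2 and 6.98 for Isg15. At the other end, Irf7 had mean levels of 301 CPM in both neutrophil-like and monocyte-macrophage-like cells. The members therefore did not share a single order of classes. Some near-identical copies could split or share reads: of the sequence words in the last 500 bases of transcripts (31 bases each, GENCODE M21), 86.4% of Ifi211 were also in Ifi205, 70.0% of Oas1a in Oas1g, 58.6% of Ifi209 in Ifi214, 44.0% of Ifi205 in Ifi211, 31.8% of Slfn8 in Slfn10-ps, 26.0% of Herc6 in Gm45193, 25.4% of Ifi213 in Ifi208, 24.0% of Ifit3 in Ifit3b and 21.0% of Trim30a in Trim30d, so levels of these genes are uncertain.

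**Figure D2:**
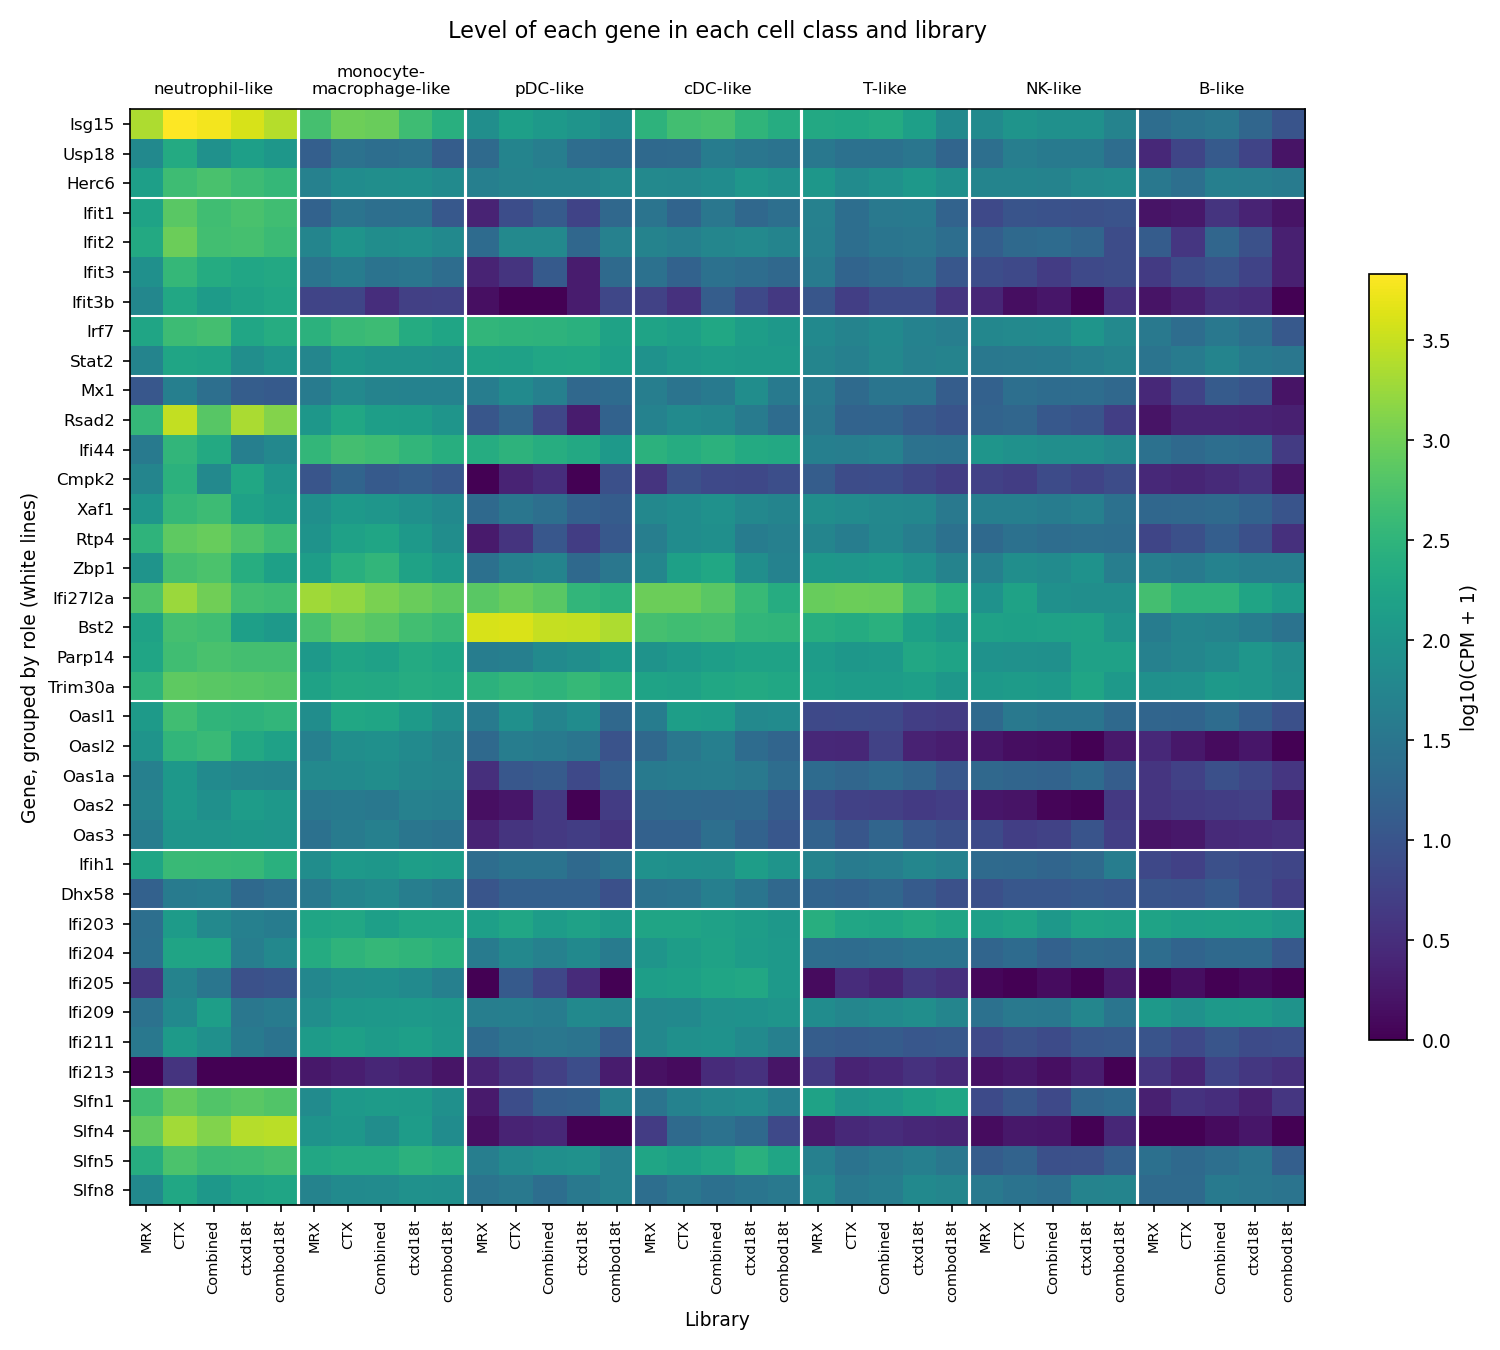
Level of each member (rows, grouped by role) in each cell class and library (columns), as log10 of CPM + 1. Most members are brightest in neutrophil-like cells, while Bst2 is brightest in pDC-like cells and the PYHIN genes, from Ifi203 to Ifi213, do not share that pattern.

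In neutrophil-like cells the members differed most between libraries, with MRX lowest for 33 of the 36 that reached a mean of 10 CPM over the 5 libraries. Ifi213 did not reach it. The share of all features lowest in MRX is not given here. All features also spread most in this class in CTX against MRX. The 5th to 95th percentile of their log2 ratios ran from -1.40 to 1.44, against -0.52 to 0.58 in monocyte-macrophage-like cells. Isg15 was at 2289 CPM in MRX, 6778 in CTX and 5860 in Combined, and at 3984 in ctxd18t and 2562 in combod18t. Its level in CTX and in Combined was above both day 18 libraries, and MRX was lowest. Rsad2 (viperin, which makes a nucleotide that ends viral RNA chains) was at 359.7 CPM in MRX, 3014 in CTX and 694 in Combined, and at 2238 in ctxd18t and 1317 in combod18t. Cmpk2, a nucleotide kinase encoded beside Rsad2, was at 55.2 CPM in MRX, 292 in CTX and 62.5 in Combined, and at 191 in ctxd18t and 102 in combod18t. For both of these genes CTX and ctxd18t were the high libraries, and MRX and Combined were the low ones. Slfn4, a Schlafen gene of myeloid cells, was at 799.7 CPM in MRX, 2004 in CTX and 1285 in Combined, and at 2517 in ctxd18t and 2704 in combod18t. It was highest in the 2 day 18 libraries. Ifit1, which binds RNA lacking host cap marks, was at 163 CPM in MRX, 709.5 in CTX and 448 in Combined, and at 540.1 in ctxd18t and 447 in combod18t, lowest in MRX and highest in CTX. Irf7, which amplifies interferon gene transcription, was at 177 CPM in MRX, 419.7 in CTX and 489.5 in Combined, and at 183 in ctxd18t and 234 in combod18t, with CTX and Combined above the other 3.

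By role in neutrophil-like cells, Isg15, Usp18 and Herc6 together were at 2499 CPM in MRX, 7439 in CTX and 6478 in Combined, and at 4550 in ctxd18t and 3027 in combod18t. The 4 IFIT genes were at 515 CPM in MRX, 2199 in CTX and 1274 in Combined, and at 1394 in ctxd18t and 1244 in combod18t. Both groups were lowest in MRX and highest in CTX. The 5 OAS genes, whose active enzymes make the signal that switches on RNase L, were at 352 CPM in MRX, 1108 in CTX and 958 in Combined, and at 794 in ctxd18t and 753 in combod18t, in that same order at both ends. The transcription factors Irf7 and Stat2 were at 230.0 CPM in MRX, 596 in CTX and 653 in Combined, and at 262 in ctxd18t and 338 in combod18t, highest in Combined. The helicases Ifih1 and Dhx58, which sense viral RNA, were at 189.9 CPM in MRX, 428 in CTX and 427 in Combined, and at 391 in ctxd18t and 298 in combod18t, level in CTX and Combined. The PYHIN genes were at 112 CPM in MRX, 539 in CTX and 489.5 in Combined, and at 165 in ctxd18t and 175 in combod18t, so that CTX and Combined stood apart from the other 3 libraries. The Schlafen genes were at 1556 CPM in MRX, 3588 in CTX and 2434 in Combined, and at 3829 in ctxd18t and 3986 in combod18t, highest at day 18, and Slfn4 carried that order. The other Schlafen genes (Slfn1, Slfn5 and Slfn8) were highest in CTX. The 11 other antiviral effectors, among them Rsad2, Cmpk2, Zbp1 and Bst2, were at 2221 CPM in MRX, 8777 in CTX and 5520 in Combined, and at 5224 in ctxd18t and 3842 in combod18t, again lowest in MRX and highest in CTX.

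A member was compared where it also had at least 50 counts in the pair of libraries, and log2 ratios are of CPM + 1, followed in parentheses, for members described in full, by the exact interval of the count ratio. Against MRX, 33 of 33 such members were at least 1.5-fold higher in CTX, where 16.2% of 4171 features were, and their median log2 ratio was 1.66 beside -0.23 over all features. In Combined against MRX, 29 of 33 members were at least 1.5-fold higher, where 14.7% of features were, with medians of 1.32 and -0.09. No member was lower by as much in either library, where 28.4% of features were in CTX and 21.2% in Combined. The largest of the CTX ratios were 3.17 (2.72 to 3.71) for Ifi44, 3.06 (2.91 to 3.22) for Rsad2 and 2.74 (2.17 to 3.43) for Ifi204, a PYHIN DNA sensor. These comparisons share the MRX library, so they do not stand as separate evidence. Combined held 13 of 33 members at least 1.5-fold below CTX (12.9% of features) and 1 above it (15.7%), with a median of -0.44 beside 0.06. Past a log2 ratio of 1 in size were 4 members, Cmpk2 at -2.21 (-3.03 to -1.50), Rsad2 at -2.12 (-2.34 to -1.90), the Isg15 protease Usp18 at -1.33 (-2.05 to -0.68) and the PYHIN gene Ifi209 at 1.08 (0.33 to 1.89). Usp18 was at 64.5 CPM in MRX, 219 in CTX and 86.8 in Combined, and at 144 in ctxd18t and 107 in combod18t, with Combined near MRX. Ifi209 was at 26.5 CPM in MRX, 65.0 in CTX and 139 in Combined, and at 32.2 in ctxd18t and 38.3 in combod18t, with Combined above the rest. It had 24 counts in CTX and 40 in Combined, so it reached 50 counts in the pair only with the library where it was high. In combod18t against ctxd18t, 4 of 34 members were lower by 1.5-fold (5.36% of features) and 0 higher (7.78%), the 4 being Isg15, Rsad2, Cmpk2 and Zbp1. Rescaling by median-of-ratios factors moved all genes by 0.14 in CTX against MRX and by -0.10 in Combined against CTX, and these moves are smaller than the ratios named.

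The neutrophil-like values rest on few cells in CTX (89) and Combined (76), against 459 in MRX, 341 in ctxd18t plus 296 in combod18t. The class joined cluster 8 and cluster 23, led by the granule genes Ngp, Camp and Ltf of immature neutrophils, and cluster 23 held 27 cells of ctxd18t and 35 of combod18t but 1 of CTX and 0 of MRX and Combined. Its member sum was 5946 CPM in ctxd18t and 5833 in combod18t, against 19069 and 16218 in cluster 8. With cluster 8 alone the day 18 log2 ratio of the member sum was -0.23, beside -0.28 with both. The 5 cells richest in Rsad2 held 47.6% of its counts in MRX, 46.3% in CTX and 40.0% in Combined, and 24.5% in ctxd18t and 24.9% in combod18t, so few cells set its level. For Isg15 the same share was 11.1% in MRX, 19.8% in CTX and 22.3% in Combined, and 8.46% in ctxd18t and 11.4% in combod18t. Counts of monocyte-macrophage markers moved with these levels: all 16 markers summed to 1559 CPM in MRX, 6984 in CTX and 4447 in Combined, and to 3370 in ctxd18t and 3396 in combod18t. The members were also summed over the cells with 0 UMIs of C1qa, C1qb, C1qc, Apoe, Adgre1 and Ms4a7, which leaves out Lyz2 and the other markers and does not measure the share of macrophage RNA. In those cells (245 in MRX, 28 in CTX and 31 in Combined, with 207 in ctxd18t and 192 in combod18t) the member sum was 7714, 41038, 23069, 17631 and 15450 CPM in that order of libraries. The log2 ratio of the sum was then 2.41 in CTX against MRX and 1.58 in Combined against MRX, beside 1.68 and 1.25 over all neutrophil-like cells. Combined against CTX had -0.83 and combod18t against ctxd18t had -0.19, beside -0.44 and -0.28. In CTX these cells had a median of 2360.5 UMIs, against 3097 in the others. The part of macrophage RNA in the members' levels was not tested.

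**Figure D3:**
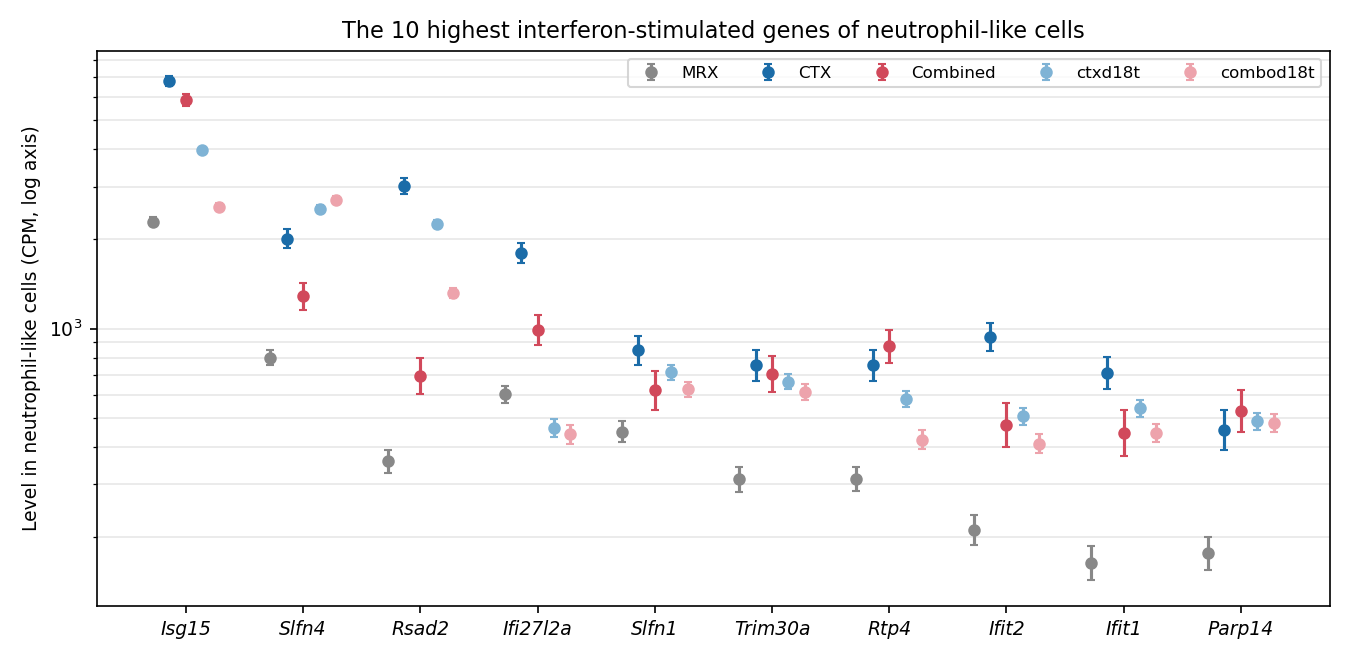
Level in CPM (log axis) of the 10 members with the highest mean in neutrophil-like cells, 1 point per library with its exact 95% Poisson interval. MRX is the lowest library for 9 of the 10, Ifi27l2a being the exception, and Rsad2 separates CTX and ctxd18t from MRX and Combined.

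When each cell was thinned to 1000 UMIs, cells with at least 1 UMI of Ifit1, Ifit2, Ifit3 or Ifit3b (called Ifit-positive here) made up 12% of neutrophil-like cells in MRX, 47.7% in CTX and 43.2% in Combined, with 31.7% in ctxd18t and 27.8% in combod18t. The exact interval ran from 9.14 to 15.4% in MRX and from 36.8 to 58.7% in CTX. Without thinning the shares were 17.9%, 65.2%, 68.4%, 50.4% and 46.6% in the same order of libraries, so CTX and Combined changed places while MRX stayed lowest. B-like cells, where the Ifit genes were nearly silent, gave 0.669% in MRX, 0.887% in CTX and 1.59% in Combined, with 1.87% in ctxd18t and 0 of 191 cells (at most 1.91%) in combod18t, at 1000 UMIs per cell. Rsad2 was seen in 46.3% of the Ifit-positive neutrophil-like cells of MRX and 78.0% of those of CTX, against 3.54% and 26.7% of the other cells. Actb, a cytoskeletal gene outside the list, was seen in 94.4% and 100% of the Ifit-positive cells and in 97.2% and 97.8% of the others. At least 5 different members were seen in 25.6% of cells in MRX, 84.9% in CTX and 74.3% in Combined, with 59.5% in ctxd18t and 54.9% in combod18t. In B-like cells that share was 3.01% in MRX, 1.24% in CTX and 3.02% in Combined, with 2.06% in ctxd18t and 0 of 191 cells (at most 1.91%) in combod18t.

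In monocyte-macrophage-like cells, phagocytes that present antigen and make cytokines, 35 members could be compared and the most abundant was Ifi27l2a, a small hydrophobic protein of the Ifi27 family. Ifi27l2a was at 1903 CPM in MRX, 1602 in CTX and 1132 in Combined, and at 913 in ctxd18t and 730.2 in combod18t, with MRX highest and the day 18 libraries lowest. Isg15 was at 498 CPM in MRX, 983 in CTX and 901 in Combined, and at 436 in ctxd18t and 258 in combod18t, and CTX and Combined stood above the other 3. Bst2 (tetherin, which holds budding virus at the cell surface) was at 547 CPM in MRX, 805 in CTX and 695 in Combined, and at 468 in ctxd18t and 399 in combod18t. Ifi44 was at 338 CPM in MRX, 485 in CTX and 440.1 in Combined, and at 336 in ctxd18t and 252 in combod18t, and it and Bst2 were both highest in CTX and lowest in combod18t. Among transcription factors, Irf7 was at 290.5 CPM in MRX, 392 in CTX and 415 in Combined, and at 229.6 in ctxd18t and 176 in combod18t, again with CTX and Combined above the rest. Of the PYHIN genes, Ifi204 was at 227 CPM in MRX, 307 in CTX and 351 in Combined, and at 317 in ctxd18t and 270.1 in combod18t, lowest in MRX. Slfn5 was at 198 CPM in MRX, 220.5 in CTX and 218 in Combined, and at 285 in ctxd18t and 245 in combod18t. Trim30a, of the TRIM family, was at 161 CPM in MRX, 210.0 in CTX and 204 in Combined, and at 232 in ctxd18t and 220.2 in combod18t, and both were highest in ctxd18t. Zbp1, a sensor of Z-form nucleic acid that can start cell death, was at 134 CPM in MRX, 261 in CTX and 329 in Combined, and at 159.8 in ctxd18t and 117 in combod18t, and its level in Combined was the highest. Rsad2 was at 104 CPM in MRX, 192 in CTX and 139 in Combined, and at 136 in ctxd18t and 98.8 in combod18t, highest in CTX. Ifit1 was at 15.2 CPM in MRX, 28.6 in CTX and 24.1 in Combined, and at 24.5 in ctxd18t and 10.2 in combod18t, lowest in combod18t.

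In combod18t against ctxd18t, 34 of the 35 members had a ratio below 0 in monocyte-macrophage-like cells, with a median of -0.33 beside 0.04 over all features. At least 1.5-fold lower were 6 members, where 3.36% of features were, and 0 were higher (2.87%). The 6 were Ifit1 at -1.19 (-1.85 to -0.74), Usp18 at -0.96 (-1.53 to -0.53), Slfn4 at -0.83 (-1.05 to -0.64), Isg15 at -0.76 (-0.87 to -0.65), Rtp4 at -0.66 (-0.87 to -0.47) and the synthetase-like gene Oasl1 at -0.60 (-0.81 to -0.41). The class held 754 cells in ctxd18t and 230 in combod18t. Between Combined and CTX, 0 of 35 members passed 1.5-fold in either direction (0.866% of features were higher and 2.3% lower), and the median was -0.12 beside 0.06. The most abundant member, Ifi27l2a, differed by -0.50 (-0.53 to -0.48) and Rsad2 by -0.46 (-0.54 to -0.40), both short of 1.5-fold. Zbp1 at 0.33 (0.28 to 0.38) and Ifi204 at 0.19 (0.15 to 0.24) were higher in Combined by smaller amounts.

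**Figure D4:**
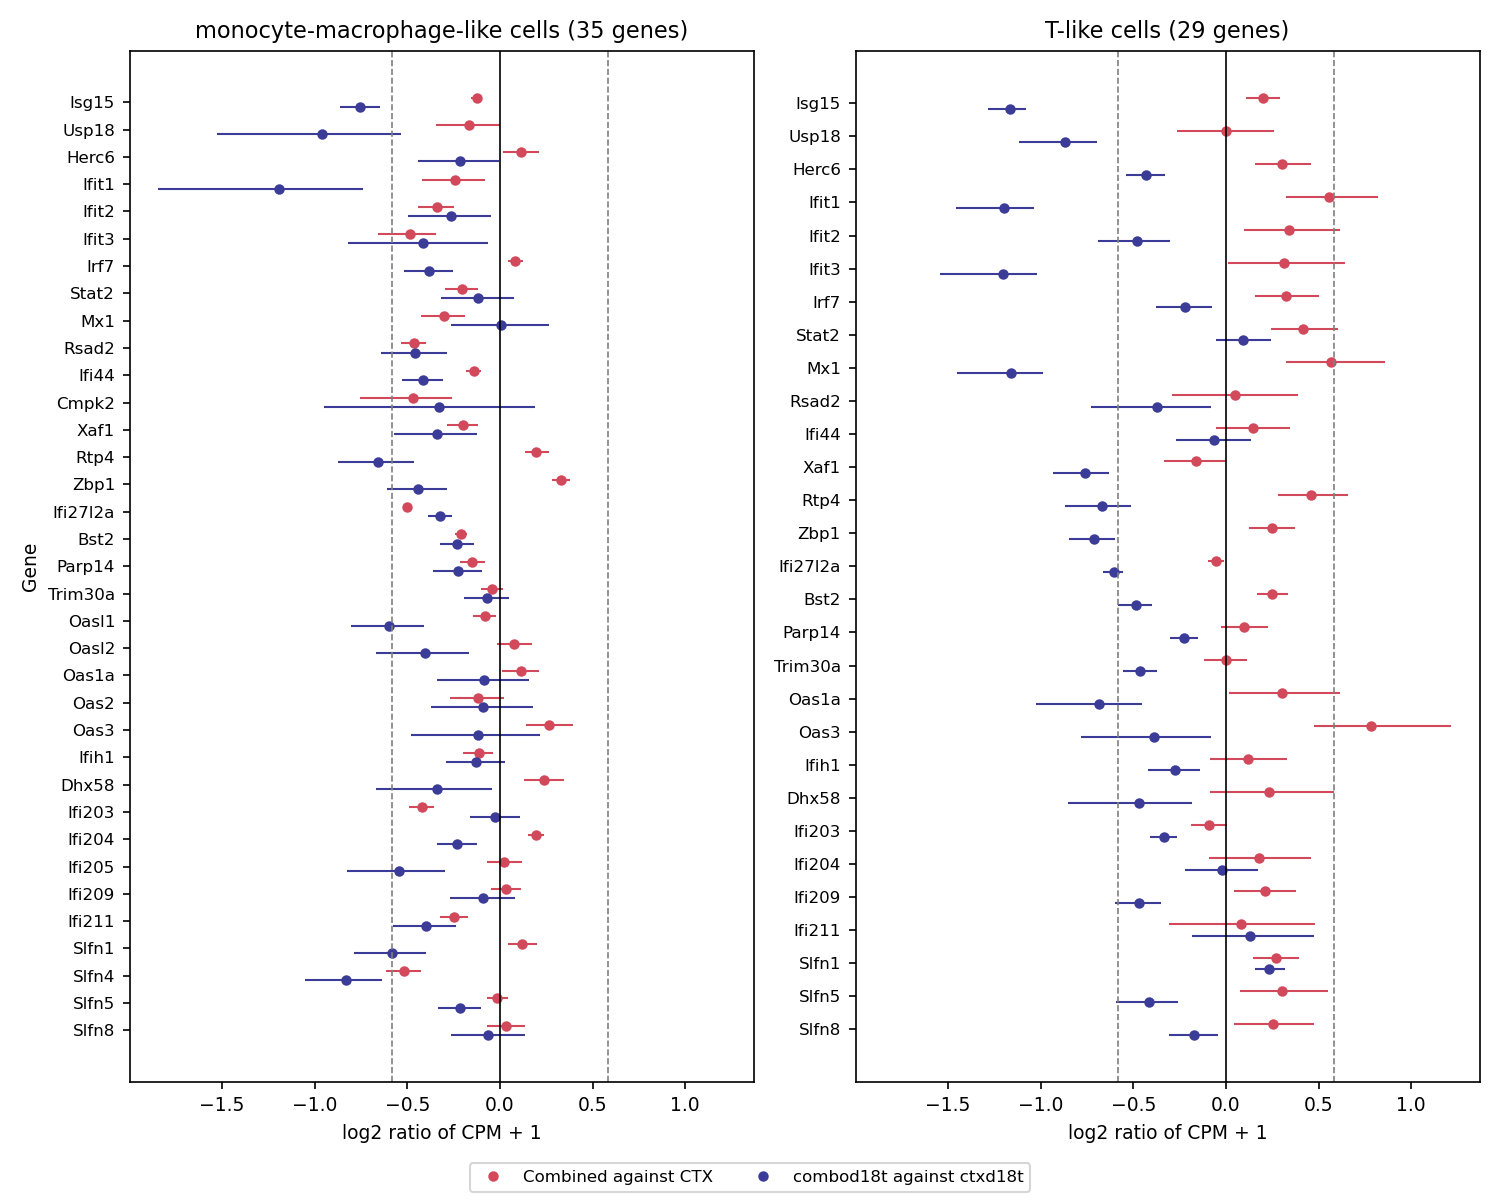
Log2 ratio of CPM + 1 of each compared member in monocyte-macrophage-like cells (35 members, left) and T-like cells (29 members, right), for Combined against CTX and for combod18t against ctxd18t, with exact 95% counting intervals. Dashed lines mark 1.5-fold. The day 18 ratios lie mostly below 0 in both classes, and the ratios of Combined against CTX lie mostly above 0 in T-like cells.

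Against MRX, 16 of the 35 members were at least 1.5-fold higher in CTX (4.83% of features) and 13 in Combined (8.55%), while 0 were lower in CTX (3.91%) and only Ifi27l2a was lower in Combined (6.97%), at -0.75 (-0.78 to -0.72). The medians were 0.56 in CTX and 0.46 in Combined, beside 0.01 and 0.08 over all features. Oasl1 led in CTX at 1.34 (1.25 to 1.46) and Zbp1 in Combined at 1.29 (1.22 to 1.38). The libraries also differed in which clusters made up the class. Cluster 0, with Ly6i, Lpl and Cxcl9 among its top genes, was 7.87% of the class in MRX, 52.6% in CTX and 73.7% in Combined, with 5.84% in ctxd18t and 8.70% in combod18t. Its member sum was 10236 CPM in MRX, 7940 in CTX and 7128 in Combined, so within cluster 0 both libraries were below MRX. Cluster 1, with the complement gene C1qa and Apoe among its top genes, had 5198 CPM in MRX, 7527 in CTX and 6266 in Combined. Cluster 7, with the monocyte genes Vcan and F13a1 among its top genes, had 6129, 7320 and 7072 CPM. In both of these, CTX and Combined were above MRX. With the same mix of clusters in each library the log2 ratio of the member sum was 0.03 in CTX against MRX (0.38 as measured) and -0.12 in Combined against MRX (0.22 as measured), so the direction of the second turned.

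In T-like cells, whose receptor-bearing subsets kill or help other cells, the most abundant member was again Ifi27l2a, at 869 CPM in MRX, 933 in CTX and 898 in Combined, and at 413 in ctxd18t and 271 in combod18t, where the 3 earlier libraries were all above the day 18 ones. Bst2 was at 248 CPM in MRX, 223 in CTX and 266 in Combined, and at 151 in ctxd18t and 108 in combod18t, with the same separation. Isg15 was at 202 CPM in MRX, 189.8 in CTX and 218 in Combined, and at 145 in ctxd18t and 64.1 in combod18t, and combod18t lay far below the other 4. Of the IFIT genes, Ifit1 was at 47.1 CPM in MRX, 23.0 in CTX and 34.2 in Combined, and at 36.4 in ctxd18t and 15.3 in combod18t. Ifit3 was at 38.7 CPM in MRX, 15.9 in CTX and 20.0 in Combined, and at 24.3 in ctxd18t and 10.0 in combod18t. Both were highest in MRX and lowest in combod18t. Mx1, a dynamin-like GTPase that traps viral nucleocapsids, was at 38.6 CPM in MRX, 19.8 in CTX and 29.9 in Combined, and at 29.5 in ctxd18t and 12.7 in combod18t, in the same order at both ends. Irf7 was at 63.9 CPM in MRX, 51.1 in CTX and 64.2 in Combined, and at 49.3 in ctxd18t and 42.1 in combod18t, a narrower range. Rsad2 was at 32.5 CPM in MRX, 15.5 in CTX and 16.0 in Combined, and at 11.8 in ctxd18t and 8.88 in combod18t, highest in MRX. Among the remaining abundant members, Ifi203 (PYHIN) was at 255 CPM in MRX, 184 in CTX and 173 in Combined, and at 214 in ctxd18t and 169.5 in combod18t. Trim30a was at 145 CPM in MRX, 129.5 in CTX and 129 in Combined, and at 143 in ctxd18t and 104 in combod18t. Zbp1 was at 104 CPM in MRX, 100.3 in CTX and 119 in Combined, and at 84.9 in ctxd18t and 51.5 in combod18t, lowest in combod18t as Ifi203 and Trim30a were. Parp14, an ADP-ribosyltransferase, was at 132 CPM in MRX, 105 in CTX and 113 in Combined, and at 196 in ctxd18t and 167 in combod18t. Slfn1 was at 160.3 CPM in MRX, 98.9 in CTX and 119 in Combined, and at 152 in ctxd18t and 179 in combod18t. These last 2 genes were highest at day 18, Parp14 in ctxd18t and Slfn1 in combod18t.

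In combod18t against ctxd18t, 10 of 29 members of T-like cells were lower by at least 1.5-fold, where 9.34% of features were, and 0 were higher (5.44%). The median was -0.46 beside -0.04, and 26 of 29 ratios were below 0, the others being Stat2, Slfn1 and Ifi211. A log2 ratio past 1 in size was found for 4 members, Ifit1 at -1.20 (-1.46 to -1.04), Ifit3 at -1.20 (-1.54 to -1.02), Isg15 at -1.17 (-1.28 to -1.08) and Mx1 at -1.16 (-1.45 to -0.99). Irf7 differed by -0.22 (-0.38 to -0.07). Most ratios of Combined against CTX lay on the other side, with 25 of 29 above 0 and a median of 0.25 beside 0.09. With median-of-ratios scaling 22 of 29 were above 0. A single member, Oas3, was higher by at least 1.5-fold (1.75% of features), at 0.78 (0.48 to 1.22), and 0 were lower (1.21%). Against MRX, 10 of 29 members were at least 1.5-fold lower in CTX (5.13% of features) and 3 in Combined (3.3%), and 0 were higher in either (7.5% and 9.1%). Rsad2 at -1.02 (-1.33 to -0.81) and Ifit3 at -1.23 (-1.53 to -1.04) led in CTX. The comparisons of Combined with CTX and of both with MRX share libraries and are not independent of each other.

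The T-like clusters carried the members to different extents. Cluster 5, led by Gzmk and Cd8a (genes of cytotoxic T cells), had the highest sum of the class's larger clusters in MRX, at 4523 CPM, with 3374 in CTX and 3354 in Combined, then 3100 in ctxd18t and 2891 in combod18t. Cluster 4, led by St8sia6 and with the resting-cell genes Lef1 and S1pr1 among its top genes, had 1782, 1571, 1509, 1875 and 1328 CPM in the same order. Cluster 4 was 15.2% of the class in ctxd18t and 49.3% in combod18t, and cluster 5 was 16.9% and 7.52%. Within clusters, the day 18 log2 ratio of the member sum was -0.50 in cluster 4, -0.58 in cluster 6 and -0.41 in the Foxp3 cluster 9. It was -0.40 in cluster 11, -0.10 in cluster 5 and 0.05 in cluster 10, which was led by Ccl1, Penk and Ifng. With the same mix of clusters the ratio was -0.32, against -0.43 as measured, and that of Combined against CTX was 0.00, against 0.11 as measured. Cluster 5 held 728 of 1839 T-like cells in MRX, 354 of 1699 in CTX and 186 of 968 in Combined. In CTX against MRX the log2 ratio of the member sum was -0.42 in cluster 5 and -0.18 in cluster 4. It was 0.02 in cluster 6, -0.0015 in cluster 9, 0.25 in cluster 10 and 0.13 in cluster 11. With the same mix of clusters it was -0.16, against -0.22 as measured.

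At 1000 UMIs per cell, Ifit-positive cells made up 9.13% of T-like cells in MRX (interval 7.85 to 10.5%), 5.25% in CTX (4.24 to 6.42%) and 7.29% in Combined (5.73 to 9.12%). The day 18 shares were 6.56% in ctxd18t (5.25 to 8.09%) and 4.31% in combod18t (3.56 to 5.17%). All 5 shares were above those of B-like cells. Cluster 5 held the most in each library, with 14.7% in MRX, 11.9% in CTX and 15.1% in Combined, then 13.3% in ctxd18t and 9.84% in combod18t, leaving aside cluster 20, whose cells were few. Isg15 was seen in 47.3% of the Ifit-positive cells of MRX and 19.8% of those of combod18t, against 8.42% and 2.84% of the other T-like cells. Of macrophage genes, Lyz2 was seen in 6.59% and 1.80% of the Ifit-positive cells and in 5.71% and 2.23% of the others. Apoe was seen in 10.2% and 3.60% against 4.93% and 1.99%, and C1qa in 5.39% and 2.70% against 3.31% and 0.731%, so both were seen more often in the Ifit-positive cells of MRX and combod18t. In Combined both were seen less often in them. The 16 monocyte-macrophage markers summed to 608 CPM in T-like cells of MRX, 581 in CTX and 625 in Combined, and to 456 in ctxd18t and 357 in combod18t, and their part in the members' levels was not tested.

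**Figure D5:**
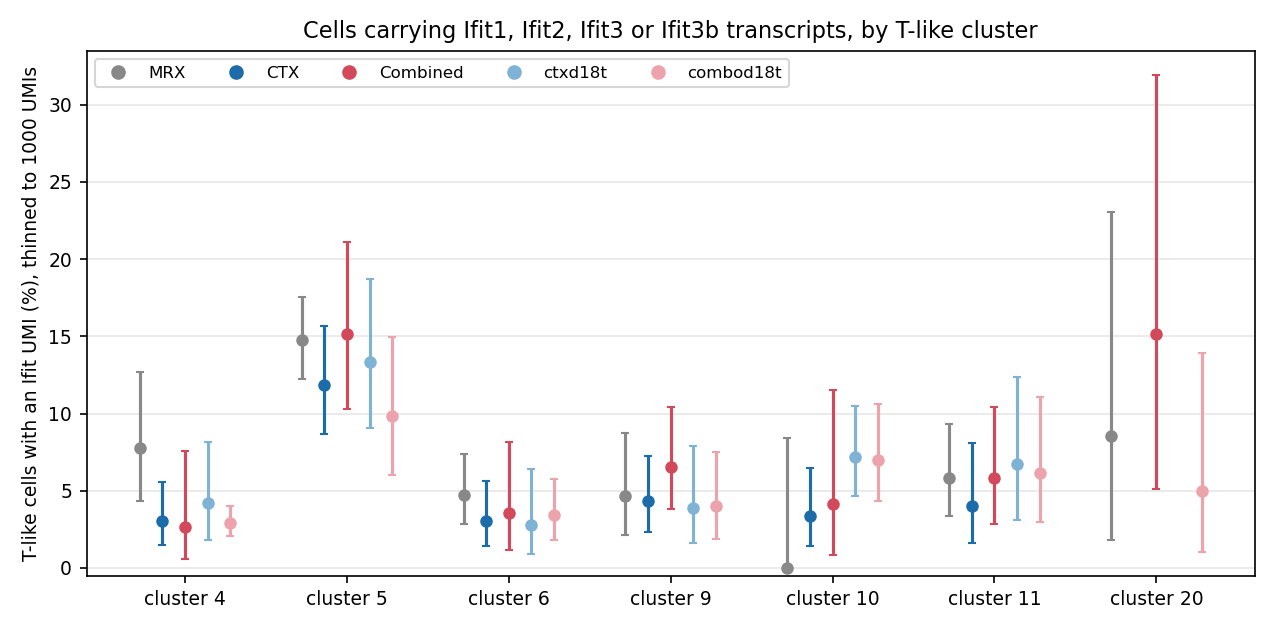
Share of T-like cells with at least 1 UMI of Ifit1, Ifit2, Ifit3 or Ifit3b, by cluster and library, each cell thinned to 1000 UMIs, with exact 95% Clopper-Pearson intervals. Cluster 5 runs from 9.84 to 15.1%, above clusters 4, 6, 9, 10 and 11 within every library, with intervals that overlap in places.

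In pDC-like cells, known as strong makers of type I interferon, Bst2 was the highest member in every library, at 4018 CPM in MRX, 4052 in CTX and 3129 in Combined, and at 3040 in ctxd18t and 2264 in combod18t. Irf7 was at 334 CPM in MRX, 309 in CTX and 298 in Combined, and at 266 in ctxd18t and 158 in combod18t. Isg15 was at 77.0 CPM in MRX, 145 in CTX and 117 in Combined, and at 95.7 in ctxd18t and 66.8 in combod18t. Each of the 3 was lowest in combod18t. In combod18t against ctxd18t, 5 of 19 members were at least 1.5-fold lower (6.97% of features) and 3 higher (10.6%), from 57 and 75 cells. Oasl1 was at 35.1 CPM in MRX, 84.0 in CTX and 52.2 in Combined, and at 72.0 in ctxd18t and 18.8 in combod18t. Slfn1 was at 0.912 CPM in MRX, 7.00 in CTX and 13.2 in Combined, and at 13.8 in ctxd18t and 47.1 in combod18t. Ifit2 was at 21.0 CPM in MRX, 61.6 in CTX and 62.1 in Combined, and at 17.8 in ctxd18t and 48.0 in combod18t. Slfn1 reached the mean of 10 CPM only through combod18t, where it was high, so its count among the higher members follows from that filter. All 3 higher members also reached 50 counts in the pair only with combod18t, where they were high. Their counts in ctxd18t and combod18t were 14 and 50 for Slfn1, 18 and 51 for Ifit2 and 20 and 34 for Zbp1. Oasl1 was lower in combod18t and the other two higher, at -1.88 (-2.73 to -1.21), 1.70 (0.89 to 2.74) and 1.39 (0.63 to 2.30). The T cell marker Cd3e moved with Slfn1 in pDC-like cells, at 5.93 CPM in MRX, 42.0 in CTX and 119 in Combined, and at 87.8 in ctxd18t and 175 in combod18t. All 12 T markers summed to 1352, 1713, 1777, 2071 and 2132 CPM in the same order of libraries. Markers of other classes were also higher in combod18t than in ctxd18t. C1qa was at 3.95 CPM in ctxd18t and 40.5 in combod18t, Apoe at 57.2 and 113 and Cd79a at 2.96 and 43.3. The neutrophil marker S100a8 was at 6.91 and 6.59 CPM. The part of these other classes in the pDC-like levels was not tested. In T-like cells of combod18t Slfn1 was at 179 CPM and Cd3e at 629, and the part of T cell RNA in the pDC-like Slfn1 level was not tested. For Ifit2, 5 cells held 86.3% of the counts in combod18t and 100% in ctxd18t. In Combined against CTX, 1 of 23 members, Oasl1, was lower (3.32% of features) and 0 were higher (10.6%). Against MRX, 10 of 23 members were at least 1.5-fold higher in CTX (4.92% of features) and 7 in Combined (12.5%), and 0 were lower in either (5.44% and 5.08%). Rsad2 ranged from 0.987 to 17.5 CPM over the libraries and Ifit1 from 1.37 to 18.8.

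In cDC-like cells, which carry antigen to T cells, Isg15 was at 303 CPM in MRX, 463 in CTX and 522 in Combined, and at 322 in ctxd18t and 232 in combod18t, highest in Combined. Irf7 was at 168 CPM in MRX, 145 in CTX and 193 in Combined, and at 133 in ctxd18t and 109 in combod18t. Rsad2 was at 48.6 CPM in MRX, 67.1 in CTX and 57.9 in Combined, and at 37.6 in ctxd18t and 21.5 in combod18t, and both were lowest in combod18t. Ifit1 was at 28.3 CPM in MRX, 16.4 in CTX and 31.6 in Combined, and at 19.0 in ctxd18t and 24.1 in combod18t, with no separation of the days. In all, 10 of 34 members were at least 1.5-fold lower in combod18t than in ctxd18t (6.78% of features) and 0 higher (6.46%), with a median of -0.30 beside 0.00. Slfn4 was at 3.77 CPM in MRX, 20.1 in CTX and 27.0 in Combined, and at 19.3 in ctxd18t and 6.03 in combod18t. It differed by -1.53 (-2.87 to -0.66) at day 18. Ifi205, whose level was higher here than in any other class, was at 139 CPM in MRX, 151 in CTX and 176 in Combined, and at 197 in ctxd18t and 113 in combod18t, and reads of Ifi211, which shares most of its transcript end with Ifi205, could be counted to either. Usp18, Ifit1, Ifit3 and Oas3 were higher by 1.5-fold in Combined than in CTX, 4 of 34 where 5.93% of features were, and 0 were lower (4.71%). Against MRX, 7 of 34 members were higher and 2 lower in CTX (10.3% and 9.43% of features), and 11 of 33 were higher and 0 lower in Combined (13.3% and 8.59%). The class held 99 cells in Combined and 69 in combod18t. It joined cluster 12, led by Mgl2 and Cd209a, and cluster 17, led by Fscn1, Il12b and Xcr1, and the member sum was higher in cluster 12 in every library. Cluster 17 was 26.8% of the class in MRX, 10.4% in CTX and 22.2% in Combined, with 40.6% in ctxd18t and 46.4% in combod18t. With the same mix of both clusters the log2 ratio of the member sum was 0.06 in CTX against MRX (0.14 as measured), 0.23 in Combined against MRX (0.24), 0.17 in Combined against CTX (0.10) and -0.30 at day 18 (-0.33). The 16 monocyte-macrophage markers summed to 2408 CPM in MRX, 5799 in CTX and 4076 in Combined, and to 2658 in ctxd18t and 1902 in combod18t, and their part in the cDC-like levels was not tested.

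NK-like and B-like cells had the lowest sums. In NK-like cells Isg15 was at 68.2 CPM in MRX, 94.4 in CTX and 82.3 in Combined, and at 82.3 in ctxd18t and 51.4 in combod18t. Irf7 was at 59.0 CPM in MRX, 63.4 in CTX and 67.4 in Combined, and at 98.4 in ctxd18t and 62.3 in combod18t, highest in ctxd18t. Zbp1 was at 45.7 CPM in MRX, 76.8 in CTX and 70.5 in Combined, and at 88.3 in ctxd18t and 42.1 in combod18t. The RNA sensor Ifih1 was at 19.8 CPM in MRX, 19.7 in CTX and 16.7 in Combined, and at 20.1 in ctxd18t and 41.3 in combod18t. Their day 18 ratios had opposite signs, -1.05 (-1.60 to -0.55) for Zbp1 and 1.00 (0.26 to 1.87) for Ifih1. Ifih1 had 20 counts in ctxd18t and 49 in combod18t, so it reached 50 counts in the pair only with the library where it was high. Together, 8 of 18 members were at least 1.5-fold lower in combod18t (3.6% of features) and 1 higher (8.22%), from 110 and 111 cells. Markers of other classes moved too: Apoe was at 5.02 CPM in ctxd18t and 93.5 in combod18t, C1qa at 8.03 and 48.0, and Cd3e at 117 and 77.5. The 16 monocyte-macrophage markers summed to 545 CPM in MRX, 754 in CTX and 605 in Combined, and to 832 in ctxd18t and 632 in combod18t, and their part in the NK-like levels was not tested. In Combined against CTX, 4 of 25 were lower (0.979% of features), namely Slfn5, Ifi27l2a, Rsad2 and Slfn1, and 0 higher (1.45%). Rsad2 reached the mean of 10 CPM there only through CTX, where it was highest. Against MRX, 5 of 25 were higher and 0 lower in CTX (3.27% and 2.91% of features), and 3 were higher and 1 lower in Combined (4.68% and 2.92%). In B-like cells Isg15 was at 22.7 CPM in MRX, 28.2 in CTX and 32.0 in Combined, and at 17.4 in ctxd18t and 8.93 in combod18t. Irf7 was at 35.0 CPM in MRX, 22.1 in CTX and 33.5 in Combined, and at 24.3 in ctxd18t and 10.7 in combod18t. Ifi44 was at 25.7 CPM in MRX, 19.5 in CTX and 23.1 in Combined, and at 21.1 in ctxd18t and 3.57 in combod18t. Slfn5 was at 25.1 CPM in MRX, 19.5 in CTX and 24.4 in Combined, and at 31.1 in ctxd18t and 13.7 in combod18t. All 4 were lowest in combod18t. Together, 7 of 17 members were at least 1.5-fold lower there than in ctxd18t (3.81% of features) and 0 higher (4.47%), with Ifi44 at -2.27 (-4.04 to -1.38), Slfn5 at -1.13 (-1.89 to -0.54) and Irf7 at -1.11 (-1.99 to -0.45). The 16 monocyte-macrophage markers summed to 604 CPM in B-like cells of MRX, 438 in CTX and 372 in Combined, and to 296 in ctxd18t and 315 in combod18t, with Lyz2 at 21.7 and 11.9 CPM in the last 2, and their part in the B-like levels was not tested. Herc6 and Slfn8 were higher in Combined than in CTX, 2 of 17 where 4.1% of features were, and 0 were lower (1.77%). Against MRX, 0 of 17 were higher and 2 lower in CTX (3.85% and 2.2% of features), and 2 were higher and 1 lower in Combined (8.13% and 2.42%). Rsad2 and Ifit1 ranged from 4.21 to 17.6 and 6.12 to 9.0 CPM in NK-like cells, and were near 0 in B-like cells, from 0.583 to 1.53 and 0.583 to 2.74 CPM.

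In all 7 classes the member sum was lower in combod18t than in ctxd18t, by a log2 ratio of -0.30 in NK-like, -0.43 in T-like, -0.50 in B-like, -0.36 in pDC-like, -0.28 in neutrophil-like cells and -0.33 in both monocyte-macrophage-like and cDC-like cells. In Combined against CTX the sum was higher in T-like (0.11), B-like (0.26) and cDC-like cells (0.10) and lower in the other 4 classes, from -0.44 in neutrophil-like to -0.16 in monocyte-macrophage-like cells. With median-of-ratios scaling the T-like and cDC-like values were both 0.01, where the medians over all features were 0.09 and 0.08, so these sums did not stand above the general shift, while the B-like value was 0.17. The direction at day 18 was thus shared by the 7 classes in this pair of libraries, and that in Combined against CTX was not. Cluster 15, kept apart from B-like cells after the data were seen, went the other way at day 18. Its sum was 822 CPM in combod18t (66 cells) and 651 in ctxd18t (252 cells), a log2 ratio of 0.34 (0.23 to 0.44).

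Genes of the pathway were also counted from lists drawn up by function. These lists overlap: the member Stat2 is among the receptor and signalling genes, and Socs1 is both there and among the interferon-gamma genes. Of 20 type I and type III interferon genes none reached the level filter in any class named here. Ifnb1 had 18 counts in all libraries together, 8 in CTX and 8 in ctxd18t, and 14 of the 20 genes had 0 counts. Ifnl2 had 221 counts, 176 of them in CTX, and most ligand counts of CTX (178) lay in 15 of 493 cells of clusters that carried markers of more than 1 class. In pDC-like cells the ligand counts were 13 in MRX, 39 in CTX and 28 in Combined, and 3 in ctxd18t and 0 in combod18t, in at most 12 cells of a library. Neutrophil-like cells had 0 ligand counts in every library. In monocyte-macrophage-like cells the receptor gene Ifnar1 was at 202 CPM in MRX, 212 in CTX and 199.6 in Combined, and at 282 in ctxd18t and 283 in combod18t. Of 13 receptor and signalling genes there, 3 were at least 1.5-fold higher (4.83% of features) and 1 lower (3.91%) in CTX than in MRX, with Socs1, a feedback inhibitor, among those past a log2 ratio of 1. Of 20 genes induced chiefly by interferon-gamma, such as Cxcl9 and the Gbp guanylate-binding proteins, 20 were higher in CTX (4.83% of features) and 19 in Combined (8.55%) than in MRX, with medians of 1.69 and 1.83, against 0.56 and 0.46 for the 35 members. Cxcl9 was at 302 CPM in MRX, 1035 in CTX and 1018 in Combined, and at 318 in ctxd18t and 235 in combod18t. It is among the top genes of cluster 0, whose share of the class differed between these libraries as given above. The part of that mix in the ratios of the interferon-gamma genes was not tested. Of 34 other interferon-stimulated genes, 7 were higher in CTX than in MRX (median 0.45), where 4.83% of features were. At day 18, 2 of the 34 were lower (median -0.14), a share near the 3.36% of all features. In T-like cells 7 of 30 of these were lower in combod18t than in ctxd18t (median -0.30, with 9.34% of features lower), among them Ifitm3 past a log2 ratio of 1, and the receptor gene Ifngr2 was higher, at 79.0 CPM in MRX, 56.9 in CTX and 71.8 in Combined, and at 86.1 in ctxd18t and 278 in combod18t. In neutrophil-like cells 23 of 25 were higher in CTX than in MRX (median 1.47, with 16.2% of features higher) and 5 of 22 were lower in Combined than in CTX (12.9% of features). Of 14 genes induced by interferon-gamma in that class, 7 were higher in Combined than in CTX (15.7% of features), with a median of 0.56 beside -0.44 for the members.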

How the data were processed

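Single-cell RNA libraries were made from CD45+ live cells with a droplet 3′ kit with on-chip multiplexing, per the labels' protocols. The values deposited by the authors are raw UMI counts per gene and cell barcode, which the labels' protocols credit to Cell Ranger 9.0.1, and the submitters' processing notes list the build GRCm39. Total counts ran from 39820290 (MRX) to 100733879 (CTX) per library, and the library labelled VC is not analysed here.

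Barcodes with at least 200 genes and at most 15% mitochondrial counts were kept. Scrublet (expected rate 0.06) set automatic thresholds that marked under 0.5% of cells, so the 5% of cells with the highest score were removed instead. Cells were clustered with scanpy 1.11.5 and leidenalg 0.10.2 (2000 variable genes without the members and the other interferon lists, 30 components, 15 neighbours, resolution 1, 27 clusters). A cluster was named for the best-scoring class, by the mean of that class's 5 best markers, given at least 3 markers seen in 10% of its cells. It was left out as mixed where another class scored at least 0.5 of the best and its cells were over 1.5 times as deep as their libraries. Clusters 13, 16, 24 and 26 were mixed. The scoring rule, its treatment of the dendritic cell family, the cDC-like class and the separation of cluster 15 (led by Jchain) from B-like cells were set after seeing the data, and rebuilt names may differ from the study's.

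Raw counts were summed per class and library and given as CPM with exact Poisson intervals. Log2 ratios used a pseudocount of 1, with exact conditional binomial intervals of the count ratio, and shares had Clopper-Pearson intervals, computed with scipy 1.17.1 and numpy 2.4.6. Features with a mean of at least 10 CPM and at least 50 counts in the pair were compared, and a ratio of 1.5-fold was the limit for counting. The 50 counts were summed over the pair, so a gene could pass through the library where it was high. With 1 library per label no test was possible. UMIs collapse PCR copies, but cells of a library are not replicates, so intervals cover counting error only. The log2 ratios and their intervals were checked on simulated Poisson counts, with no variation between cells or libraries. The other steps were not checked in this way.

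The members and the other lists were chosen with earlier results of these data known. In neutrophil-like cells all members are summed by role. The level in each library is given for the 8 most abundant members of monocyte-macrophage-like and T-like cells, for members whose log2 ratio was at least 1 in size when Combined was set against CTX or combod18t against ctxd18t, and for Irf7, Isg15, Ifit1 and Rsad2, and further members named with values were chosen after their values were seen. Of the other lists, all genes that passed were counted. 1 result on a gene of these lists is not reported here. Alternatives were median-of-ratios scaling, thinning to 1000 or 2000 UMIs, the mean of each cell's CPM, at least 500 genes per cell, mixed clusters kept, resolution 2, a common mix of clusters, the sum without its most abundant member, a pseudocount of 10 and no filter on level. Leaving out shared barcodes, using cluster 8 alone for neutrophil-like cells and using only their cells without UMIs of 6 macrophage markers were added after seeing the data.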

Additional observations from a re-analysis of the deposited data

Results flagged for a closer look

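For 9 members in a class, Combined stood above CTX while combod18t stood below ctxd18t, with both intervals away from 0. There were 38 pairs of opposite direction in all, in either order, and those listed differ by a log2 gap of at least 1, a limit set after seeing the data. The difference between the 2 comparisons was not tested, and day and run cannot be told apart in it. In T-like cells for Isg15 the log2 ratio of Combined against CTX was 0.20 and that of combod18t against ctxd18t was -1.17. The corresponding pairs in the same class were 0.55 and -1.20 for Ifit1, 0.31 and -1.20 for Ifit3, and 0.57 and -1.16 for Mx1. Oas3 had 0.78 and -0.39, and Rtp4, a chaperone of surface receptors, had 0.46 and -0.67. In B-like cells Irf7 had 0.58 and -1.11. In cDC-like cells the helicase Dhx58 had 0.57 and -0.62, and the PYHIN gene Ifi205 had 0.21 and -0.80. These values and intervals are without median-of-ratios scaling. That scaling moves Combined against CTX by -0.10 in T-like and by -0.09 in B-like and cDC-like cells, so the smallest of these ratios may not stay away from 0. Each of the 9 pairs was higher in Combined than in CTX and lower in combod18t than in ctxd18t, and the reverse order was not among them. The mix of T-like clusters differed between the day 18 libraries, with the resting cluster 4 at 15.2% of the class in ctxd18t and 49.3% in combod18t, and its part in these pairs was not tested gene by gene.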

How the results depend on the processing

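No paired analysis was possible because each label has 1 library. The values are log2 ratios of the member sum, in the order Combined against CTX, combod18t against ctxd18t, CTX against MRX and Combined against MRX. For monocyte-macrophage-like and T-like cells, a value that is not given stayed within its counting interval. With median-of-ratios scaling they were -0.21, -0.38, 0.36 and 0.15 in monocyte-macrophage-like cells, and 0.01, -0.40 and -0.19 in T-like cells (CTX against MRX stayed). Thinned to 1000 UMIs, the last 3 were -0.44, 0.43 and 0.28 in monocyte-macrophage-like and -0.62, -0.19 and -0.07 in T-like cells. The mean of each cell's CPM gave -0.18, -0.36, 0.43 and 0.25 in the first class, and -0.60 at day 18 and -0.25 in CTX against MRX in the second. With mixed clusters kept, monocyte-macrophage-like cells had -0.58 at day 18, 0.31 and 0.15 against MRX. Resolution 2 gave -0.46 at day 18 in T-like cells. With the same mix of clusters the values were -0.18, -0.39, 0.03 and -0.12 in monocyte-macrophage-like cells, the last reversed, and 0.00, -0.32, -0.16 and -0.16 in T-like cells, which the construction ties to cluster shares. Without the most abundant member they were -0.08 in Combined against CTX, 0.60 and 0.52 against MRX in monocyte-macrophage-like cells, and 0.19, -0.40, -0.37 and -0.18 in T-like cells. In pDC-like cells that setting, which drops Bst2, turned Combined against MRX from -0.13 to 0.19 and moved CTX against MRX from 0.16 to 0.37. In B-like cells it moved Combined against MRX from -0.01 to 0.28, while median-of-ratios scaling gave -0.15. Thinned to 1000 UMIs, NK-like cells had -0.59 at day 18 (-0.30 as measured), and the mean of each cell's CPM gave -0.43. Further values that moved by over 1.5 times were, with median-of-ratios scaling, 0.01 for cDC-like and 0.17 for B-like cells in Combined against CTX (0.10 and 0.26 as measured), and 0.15 in cDC-like, -0.23 in pDC-like and -0.06 in NK-like cells in Combined against MRX (0.24, -0.13 and -0.01). Thinned to 1000 UMIs, pDC-like cells had -0.18, -0.22 at day 18 and -0.03 against MRX, and at resolution 2 they had -0.17 and -0.02 in the comparisons of Combined (-0.29 and -0.13 as measured, -0.36 at day 18). The same mix of clusters gave cDC-like cells 0.17 in Combined against CTX and 0.06 in CTX against MRX. Without the most abundant member, Combined against CTX was 0.21 in cDC-like and -0.18 in pDC-like cells, Combined against MRX was 0.39 in cDC-like cells and CTX against MRX was -0.10 in B-like cells (-0.28 as measured). In the 5 classes besides monocyte-macrophage-like and T-like cells the sign of each sum ratio was the same under every alternative run, save for Combined against MRX in pDC-like and B-like cells. With no filter on level, 1 member of monocyte-macrophage-like cells was lower in Combined than in CTX (0 with it) and 2 of T-like cells were higher (1 with it), and a pseudocount of 10 left 0 of the latter. The shares of Ifit-positive T-like cells thinned to 2000 UMIs were 14.2% in MRX, 8.76% in CTX and 12% in Combined, with 11.7% in ctxd18t and 6.71% in combod18t, and unthinned 22.0%, 20.1%, 24.5%, 26.7% and 18.2%, so combod18t was lowest at each depth while the highest library changed. The member sum was lower in combod18t than in ctxd18t in both classes under all 9 alternatives. Few cells stand behind the neutrophil-like values of CTX (89) and Combined (76), the pDC-like values of ctxd18t (75) and combod18t (57) and the cDC-like values of Combined (99) and combod18t (69). Counts of the members were fewest in combod18t in B-like cells (1259) and NK-like cells (1557).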
